A study of Mus musculus with 11 samples.

Results

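The genes described here encode the protein components of the cytosolic ribosome of the mouse. They were chosen by name alone, as protein-coding entries of the expression table whose symbol is *Rpl* or *Rps* followed by a number, together with *Rpsa*, *Rplp0*, *Rplp1* and *Rplp2*, and without the kinases of the ribosomal protein S6. This gave 84 of the 45777 genes in the table, of which 52 encode proteins of the large subunit and 32 proteins of the small subunit. The family was selected for description after results of these data were known, so counts of its members are given as descriptions beside the share among all genes. Skin and small intestine of BALB/c mice were profiled by RNA sequencing. At 8 to 10 weeks of age, control mice received 62.5 mg of vehicle cream (Vaseline) per day on the shaved back. IMQ-treated mice received the same amount of a 5% imiquimod (IMQ) cream (Aldara) there. Imiquimod is a ligand of TLR7 that produces psoriasis-like skin inflammation. The creams were different products, so effects of the drug and of the cream base cannot be told apart. The sample annotation states a treatment of 5 to 8 days, and the days and sex of each mouse are not given. Skin gave 3 control (replicates 1 to 3) and 3 IMQ libraries (4 to 6). Small intestine gave 3 control (7 to 9) and 2 IMQ libraries (10 and 11). Which libraries came from the same mouse is not stated, so p-values measure the spread between these libraries.

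A ribosome consists of a small subunit, which reads the mRNA, and a large subunit, which joins the amino acids. Each needs 1 copy of nearly every ribosomal protein, and their genes are among the most highly expressed of any tissue. Their mRNAs begin with a C followed by a tract of pyrimidines, the TOP motif, through which mTOR signaling and the RNA-binding protein LARP1 control their translation, whereas MYC promotes their transcription. RNA sequencing measures the amount of these mRNAs and not their translation. In bulk tissue, fewer cells of a type and less RNA per cell cannot be told apart.

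The start sites of several members are shown because the TOP motif is the sequence feature best known for this family. Where a gene has more than 1 start among the promoter windows used, the upstream one of these is shown. It need not be the most upstream end of the gene. RefSeq promoter windows of build GRCm38.p6, which has the coordinates of mm10, were matched for 64 of the 84 members. Each line holds the 15 bases before and the 15 bases from an annotated start, read 5′ to 3′ on the strand of the gene, with the longest run of C and T in capitals. The first 7 are members with such a run across or beside the start, and the last 7 are members on which the results below turn or their paralogs.
Rpl15, chr14:18270972-18271001, minus strand: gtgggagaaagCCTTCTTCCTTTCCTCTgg
Rpl28, chr7:4792950-4792979, plus strand: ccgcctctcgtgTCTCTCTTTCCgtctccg
Rps18, chr17:33955651-33955680, minus strand: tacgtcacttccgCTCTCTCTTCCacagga
Rps6, chr4:86857353-86857382, minus strand: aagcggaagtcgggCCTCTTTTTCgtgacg
Rplp2, chr7:141447636-141447665, plus strand: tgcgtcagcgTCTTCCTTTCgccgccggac
Rps27, chr3:90213634-90213663, minus strand: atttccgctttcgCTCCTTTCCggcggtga
Rps9, chr7:3704026-3704055, plus strand: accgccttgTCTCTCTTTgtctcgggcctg
Rps12, chr10:23787195-23787224, minus strand: taccgtcatgcggccaccgccggCCTTTTC
Rps27l, chr9:66946071-66946100, plus strand: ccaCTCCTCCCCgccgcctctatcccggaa
Rpl39, chrX:37085208-37085237, minus strand: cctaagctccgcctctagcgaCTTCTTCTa
Rpl39l, chr16:10170213-10170242, plus strand: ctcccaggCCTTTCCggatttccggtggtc
Rpl22l1, chr3:28805493-28805522, plus strand: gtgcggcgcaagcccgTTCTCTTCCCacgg
Rpl7l1, chr17:46782642-46782671, minus strand: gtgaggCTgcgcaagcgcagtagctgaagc
Rpl3l, chr17:24727811-24727840, plus strand: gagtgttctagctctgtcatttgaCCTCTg

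A start with C followed by 4 pyrimidines was annotated for 14 of the 64 members (21.9%), against 2.7% of the 17519 protein-coding genes with a window. A run of at least 8 pyrimidines within 30 bases on either side of the start was present in 56.2% of the members and 25.4% of all genes. Of 3 pyrimidine words searched within the same distance on the strand of the gene, CTTTCC was present in 18.8% of members against 3.2% of genes, CTCTTT in 17.2% against 2.4%, and CTTCC, whose matches can share bases with those of the others, in 34.4% against 15.1%. Over the whole window of 300 bases and both strands, CCGGAAG, a core of sites for ETS factors, was present in 40.6% of members and 12.9% of genes. The TATA word TATAAA was present in 12.5% of members and 14.8% of genes, and the E-box CACGTG, bound by MYC among others, in 9.4% and 8.9%. A match is a description of the letters, and annotated starts can lie several bases from the start that is used.

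The genes are scattered over 19 chromosomes, with 14 on chromosome 7 and 4 on the X chromosome (*Rpl10*, *Rpl36a*, *Rpl39* and *Rps4x*). Introns of many members hold small nucleolar RNAs, which guide the modification of ribosomal RNA. In the GENCODE annotation, 30 of the 83 members with a match (36.1%) held at least 1 snoRNA on their strand, against 1.2% of all protein-coding genes of the table. *Rpl4* held 5, *Rpl13a* held 4, and *Rps12* and *Rpsa* held 3 each.

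Counts on the family made up 3.74%, 3.39% and 4.41% of all counts in the 3 control skin libraries, and 4.01%, 4.35% and 4.56% in the 3 IMQ skin libraries. Control 3 lay above the lower 2 IMQ libraries, so the groups overlapped. The small intestine held less of the family, with 2.23%, 2.47% and 1.98% in controls and 2.01% and 1.99% after IMQ, all below every skin library. The library sizes were between 44995414 and 58526384 counts. The 95% binomial interval (score method) of a library's share, which covers counting error only, was therefore narrow (3.74% to 3.75% for control 1). By transcript length, as the share of summed TPM, the family took 9.06% to 11.6% of the skin libraries and 4.65% to 5.85% of the small intestine libraries.

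The order of the members by FPKM, a count scaled by transcript length and library size, was nearly the same everywhere. Spearman's rho of the members' FPKM between 2 libraries was 0.947 to 0.993 over the 84 members, which share the length scaling and the annotation. *Rplp1*, an acidic protein of the stalk of the large subunit, had the highest mean FPKM, with 1511, 1369 and 1694 in control skin, 1796, 2003 and 2019 in IMQ skin, 882.3, 919.3 and 744.7 in control intestine, and 770.4 and 846.3 in IMQ intestine. *Rpl41*, *Rps12*, *Rps9* and *Rpl23a* followed. The median FPKM over members was 493 in control skin, 571 in IMQ skin, 288 in control intestine and 255 in IMQ intestine. Of the 83 pairs of neighbours in the order of the means, 6 in control skin, 7 in IMQ skin, 7 in control intestine and 24 in IMQ intestine, with its 2 libraries, did not overlap between the libraries. Among the 21949 protein-coding genes, 65 to 69 members were in the 200 with the highest FPKM in skin libraries and 32 to 45 in small intestine libraries. At the low end, *Rpl10l* was listed at 0 in all 11 libraries, *Rpl32l* was between 0.123 and 0.679 FPKM, and *Rpl29*, *Rpl7l1* and *Rps15a* were below 82 FPKM in each library. A further 213 ribosomal protein pseudogenes of the table held counts equal to 4.99% to 5.81% of those of the members. The treatment of reads that fit more than 1 gene is not given in the sources used here, so the split between members and these copies is uncertain.

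**Figure D1:**
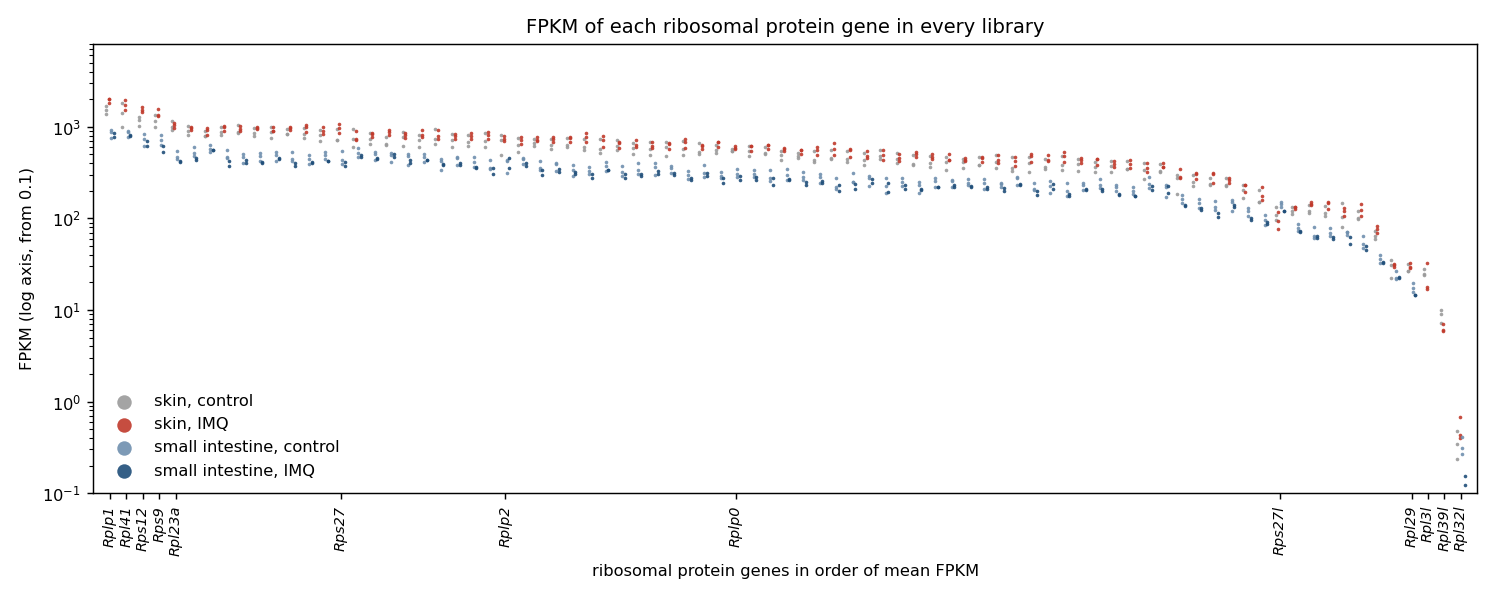
FPKM (log axis) of the 83 members with any value, ordered by mean, with 1 point for each of the 11 libraries, colored by tissue and treatment, with some members labelled; points under 0.1 are not drawn. Skin libraries lie above small intestine libraries for nearly all members, *Rps27l* lies higher in the intestine, and *Rpl3l* and *Rpl39l* have no intestine value above 0.1.

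The first comparison asked whether the family differed between IMQ-treated and control skin. Nearly all members had slightly higher normalized counts in IMQ skin, but none passed the test. Over the 83 members that could be tested, edgeR's quasi-likelihood method gave 0 calls once p was adjusted (Benjamini-Hochberg, threshold 0.05) across the whole table, in which 6.74% of 20512 genes were called. In the same fit 4 members had an unadjusted p under 0.05, against 23.2% of genes. The log2 fold change was above 0 for 80 of 83 members, against 48.5% of genes, and its median was 0.20 over the members and -0.01 over all genes. In 33 members all IMQ libraries lay above all control libraries, where 15.1% of genes did so, and in 1 member, *Rpl39l*, all lay below, where 13.3% of genes did so. The 95% intervals of the fold change lay within 1 log2 unit on either side of 0 for 82 of the 83 members, the weakly expressed *Rpl32l* being the exception.

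The control skin libraries differed among themselves. Relative to the control mean, the median member stood at -0.06, -0.10 and 0.16 on the log2 scale in controls 1, 2 and 3, and at 0.15, 0.23 and 0.27 in IMQ libraries 4, 5 and 6. Control 3 thus stood above IMQ 4, and the control medians spanned more than the median fold change of 0.20. Control 2 stood apart from the other control skin libraries in its cell markers. The summed level of 17 hair follicle genes was 62.5 CPM (counts scaled to a fixed library total) there, against 1886 and 2981 in controls 1 and 3 and 42.7 to 76.2 in IMQ skin, the sum of 12 proliferation genes was 444 CPM, against 1355 and 1443 in controls and 723 to 853 in IMQ skin, and the sum of 12 enterocyte genes, which mark another tissue, was 571 CPM, against 117 and 93 in controls and 173 to 218 in IMQ skin. Without control 2, 0 members were called again, where 12.1% of genes were, 79 of 83 fold changes were above 0, where 51.3% of genes were, the median was 0.16, and 35 members did not overlap in the higher direction, where 23.4% of genes did not. Summed levels of markers of other cells separated IMQ from control skin without overlap. The summed level of 8 activated keratinocyte genes was 1155 to 1730 CPM in control and 9622 to 18570 CPM in IMQ skin, that of 8 basal keratinocyte genes 6669 to 9048 and 10864 to 14311 CPM, and that of 10 myeloid genes 688 to 932 and 1493 to 1893 CPM. All 8 activated keratinocyte genes and 9 of the 10 myeloid genes had a log2 fold change above 0. The basal keratinocyte genes were mixed, with 5 above 0 and 3 below (median 0.20), 1 called higher and 1 called lower. The part of the hair cycle or of these cells in the values of the family was not tested.

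**Figure D2:**
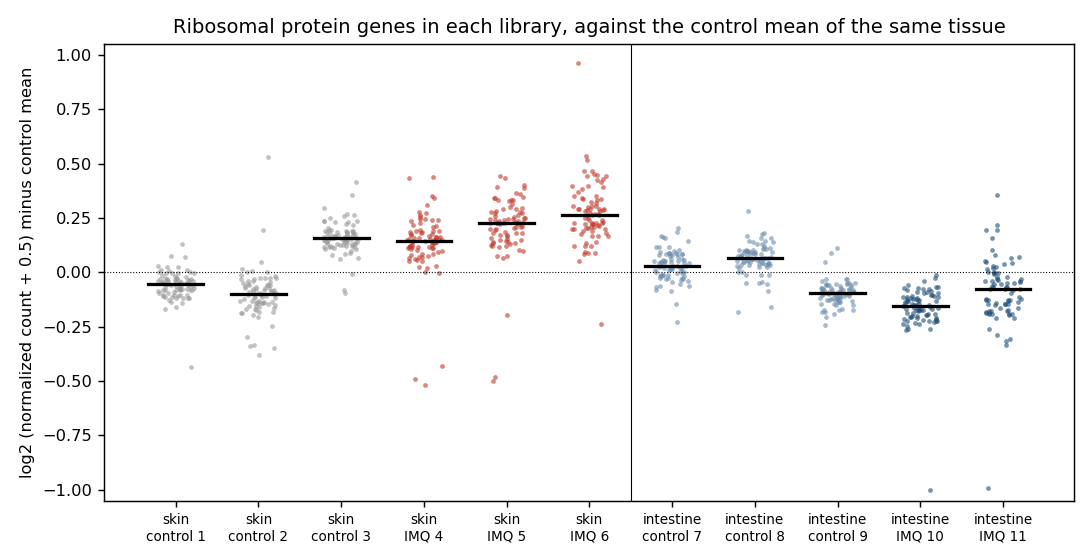
Log2 normalized count (0.5 added) of each member minus its mean in the control libraries of the same tissue, for the 83 members tested in skin and the 81 tested in small intestine; black bars are medians and values beyond 1 are drawn at 1. The median of control 3 (0.16) lies within those of the IMQ skin libraries (0.15 to 0.27), and those of the IMQ intestine libraries (-0.16 and -0.08) lie on either side of that of control 9 (-0.10).

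Among members with a mean of at least 50 normalized counts, the highest fold changes in skin were those of *Rps12*, *Rplp1*, *Rps29*, *Rpl41* and *Rps27*. *Rps12*, a small-subunit protein whose gene lies at chr10:23785183-23787383, had 32079, 30122 and 34354 normalized counts in control and 43583, 43404 and 46008 in IMQ skin. Its groups did not overlap and its log2 fold change was 0.46 (SE 0.14), with an adjusted p of 0.0987 in edgeR's quasi-likelihood test, the lowest of the family. *Rplp1* had 36952, 35966 and 40957 in control and 48059, 51588 and 50548 in IMQ skin, a log2 fold change of 0.40 (SE 0.14). *Rps29*, a zinc-binding protein of the small subunit, had 12775, 14135 and 15510 in control and 17975, 18601 and 19137 in IMQ skin, a log2 fold change of 0.39 (SE 0.13). These 3 genes did not overlap between the groups, and they were the 3 members that the Wald test of DESeq2 called, with 14.8% of all genes called by that test. For *Rpl41*, the shortest protein of the ribosome, control 3 with 41876 lay within the IMQ range of 38701 to 47469, and for *Rps27*, control 3 with 17161 lay above the lowest IMQ library with 17143. Without control 2 the fold change of *Rpl41* was 0.19 in place of 0.36.

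The lowest fold changes in skin belonged to 3 paralogs that are not part of every ribosome. *Rpl39l*, a paralog of *Rpl39* best known from male germ cells, had 365, 314 and 399 normalized counts in control and 255, 256 and 303 in IMQ skin, a log2 fold change of -0.41 (SE 0.18) with no overlap and an adjusted p of 0.244 in edgeR's quasi-likelihood test. *Rpl3l*, the paralog of *Rpl3* in striated muscle, had 1944, 2412 and 1994 in control and 1471, 1490 and 2685 in IMQ skin, with 1 IMQ library above all controls. The summed level of 12 skeletal muscle genes was 10587 to 16642 CPM in control and 8210 to 15429 CPM in IMQ skin, so muscle RNA was abundant in both, and its part in *Rpl3l* was not tested. *Rps27l*, a paralog of *Rps27* that is a known target of p53, had 2960, 2789 and 3520 in control and 2284, 2680 and 3285 in IMQ skin, a log2 fold change of -0.17 (SE 0.16) with overlap. *Rpl24* (0.07) and *Rpl23a* (0.08) had the lowest values among the other members.

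Genes that are often used as references or are known for roles outside the ribosome lay in the same range. *Rplp0* had a log2 fold change of 0.15 (SE 0.14) and did not overlap between the groups. *Rpl13a*, with 30800, 28333 and 37144 in control and 34529, 38648 and 39959 in IMQ skin, had 0.23 (SE 0.16), and *Rps18* had 0.25 (SE 0.12). *Rpl5* (0.18) and *Rpl11* (0.26) encode the proteins that bind MDM2 when ribosome assembly is disturbed. *Rps19* (0.09), a gene mutated in Diamond-Blackfan anemia, *Rps6* (0.19), whose product is phosphorylated by S6 kinases, *Rpsa* (0.16), also known as a laminin receptor, *Rps27a* (0.32), whose product is made as a fusion with ubiquitin, *Rpl10a* (0.28), *Rpl38* (0.19) and *Rpl4* (0.13) all had an adjusted p of at least 0.25 in edgeR's quasi-likelihood test.

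The second comparison was the same one in small intestine. Here most members had slightly lower normalized counts after IMQ, and again none passed the test. Of 81 members tested, 0 were called, where 2.95% of the 19965 genes were, and 2 had an unadjusted p under 0.05, where 12.3% of genes had. The log2 fold change was below 0 for 76 members, against 53.7% of genes, and its median was -0.12 over the members and -0.02 over all genes. In 34 members both IMQ libraries lay below the 3 controls, where 13.9% of genes did so, and in 0 members they lay above, where 15.1% did so. The 95% intervals lay within 1 log2 unit of 0 for 80 members, all but *Rpl32l*. The median member stood at 0.03, 0.07 and -0.10 in controls 7, 8 and 9, and at -0.16 and -0.08 in IMQ libraries 10 and 11, so control 9 lay between the IMQ libraries. The median fold change was -0.07 without IMQ 10, where the single IMQ library left was taken to vary like the controls, and -0.17 without control 9. Summed levels of cell markers differed between the same libraries without overlap. The summed level of 12 enterocyte genes was 32442 to 42172 CPM in control and 48623 to 53470 CPM in IMQ intestine, that of 10 myeloid genes 335 to 450 and 741 to 766 CPM, that of 9 crypt and Paneth cell genes 12713 to 15276 and 9717 to 10653 CPM, and that of 7 goblet cell genes 6985 to 9080 and 6108 to 6567 CPM. The enterocyte sum did not reflect most of its genes, as 7 of the 12 had a log2 fold change below 0 and 5 above. Their median was -0.04, and 0 were called. Above 0 were 9 of the 10 myeloid genes, and below 0 were 8 of the 9 crypt and Paneth cell genes and all 7 goblet cell genes. The part of these cells in the values of the family was not tested.

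*Rps9* had 26449, 31389 and 30261 normalized counts in control and 24690 and 23269 in IMQ intestine, the lowest log2 fold change among members with a mean of at least 50 (-0.29, SE 0.17). *Rpl30*, which had 4213, 4560 and 3991 in control and 3549 and 3410 in IMQ intestine, also had -0.29 (SE 0.12), with an adjusted p of 0.402 in edgeR's quasi-likelihood test. Both IMQ libraries lay below all controls for these 2 genes and for *Rpl7* (-0.26), *Rpl22l1* (-0.23) and *Rpl15* (-0.22). The 5 members above 0 were *Rplp2* (0.12), *Rps29* (0.09), *Rps21* (0.05), *Rps28* (0.05) and *Rpl36* (0.02). All 5 overlapped between the groups. *Rplp2*, the partner of *Rplp1* in the stalk, showed the widest spread, with 11395, 10726 and 8613 in control and 9181 and 13020 in IMQ intestine. IMQ 11 was the higher IMQ library for each of the 5, and without it all 5 were below 0, from -0.02 for *Rps29* to -0.16 for *Rplp2*.

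Whether the tissues differed in their response was tested as an interaction in 1 model of all 11 libraries. The interaction, the fold change in intestine minus that in skin, was below 0 for all 81 members tested, against 47.2% of genes, with a median of -0.32 over the members and 0.03 over all genes. For none of the 81 was it past the threshold in edgeR's quasi-likelihood test, where 2.55% of the 18108 genes were, although 16 had an unadjusted p under 0.05, a share close to the 16.9% among all genes. With the same minimum of 50, the lowest values were those of *Rps9* (-0.61, SE 0.21), *Rpl30* (-0.56, SE 0.17), *Rps12* (-0.52), *Rps27* (-0.51) and *Rps2* (-0.50), and those nearest to 0 were *Rps27l* (-0.01), *Rplp2* (-0.07) and *Rps28* (-0.11). *Rpl30* had the lowest adjusted p, 0.117 in edgeR's quasi-likelihood test. DESeq2 called 6 members, *Rpl10a*, *Rpl30*, *Rpl7*, *Rps4x*, *Rps25* and *Rps9*, where it called 7.07% of genes. Without skin control 2, *Rpl32l* alone was called (adjusted p of 0.0408 in edgeR's quasi-likelihood test, where 5.9% of genes were called), on 5.4 to 22.3 normalized counts per library, and 79 of 81 members were below 0, where 50.9% of genes were, with a median of -0.29.

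**Figure D3:**
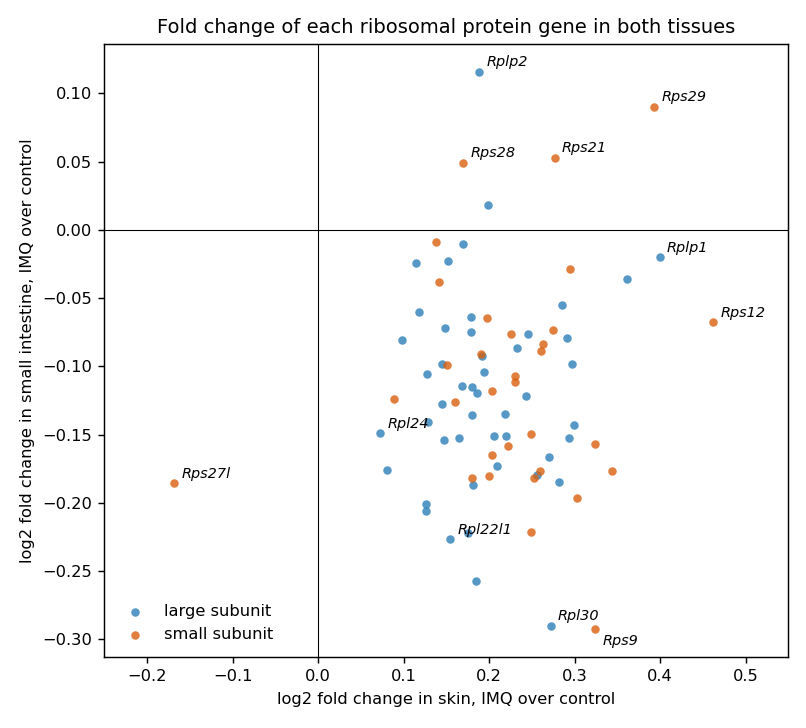
Log2 fold change of IMQ over control in skin (x axis) and in small intestine (y axis) for the 80 members whose mean normalized count reached 50 in both, colored by subunit. All but *Rps27l* lie to the right of 0 and all but 5 lie below 0; no member passed the test in either tissue.

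The third comparison set the control libraries of the tissues side by side. Between control tissues, 23 of 81 members were called, 22 lower in intestine and 1 higher, in edgeR's quasi-likelihood test at an adjusted p under 0.05. Among all 18890 genes tested, 51.9% were called, 25.7% lower and 26.2% higher. The share of members called lower was close to that of all genes. The fold change was below 0 for 78 of 81 members, all but *Rps27l*, *Rpl7l1* and *Rpl32l*, with a median of -0.32, where 50.2% of genes were below 0. Its size depends on the scaling. Relative log expression sets the median of all genes near 0, whereas scaling by total counts moves it to -0.46 and the median of the members to -0.78. The number called was 38 with TMM (52% of all genes), 45 with the upper quartile (52.4%) and 77 with total counts (58.6%). It also depended on single libraries, with 10 called without skin control 1 (42.9% of all genes), 24 without skin control 2 (53.1%), 7 without skin control 3 (47.8%), and 4 (45.9%), 9 (46.2%) and 2 (43%) without intestine controls 7, 8 and 9.

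*Rpl39*, a small protein at the exit tunnel of the large subunit, had 9306, 10384 and 11388 normalized counts in skin and 6576, 7486 and 6425 in intestine (log2 difference -0.60, SE 0.14, adjusted p of 0.00723 in edgeR's quasi-likelihood test). *Rpl23a*, which sits at the same exit, had 26280, 27332 and 30212 in skin and 18078, 19240 and 17425 in intestine (-0.61, SE 0.15). Other members at the low end were *Rpl13* (-0.55) and *Rpl13a* (-0.52), and *Rpl22*, *Rpl36a* and *Rps19* were at -0.51 each. All 7 passed the test, with every intestine library below every skin library. *Rpl28* (-0.06), *Rps29* (-0.07) and *Rpl18* (-0.07), at the other end of the values below 0, did not pass it. *Rps27l*, at chr9:66944624-66949522, had 2710, 2642 and 3206 normalized counts in skin and 5279, 4339 and 5279 in intestine. The log2 difference of 0.80 (SE 0.14, adjusted p of 0.00199 in edgeR's quasi-likelihood test) was past the threshold without any 1 of the 6 libraries, but not with total counts (0.33, adjusted p of 0.0882) or on log2(FPKM + 1) (0.35).

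Ratios of 2 genes within a library do not depend on the scaling. *Rps27l* counts were 22.8%, 20.1% and 20.5% of those of *Rps27* in control skin, 13.3%, 14.5% and 16.3% in IMQ skin, 50.5%, 36.3% and 54.9% in control intestine, and 44.6% and 47.9% in IMQ intestine. The ratio was thus higher in every intestine library than in any skin library, and lower in every IMQ skin library than in any control. With 3 libraries against 3, the exact two-sided permutation test of the log2 ratio cannot go below 0.1, and it gave 0.1 both for the control tissues (difference 1.14) and for IMQ against control skin (-0.53). In intestine the difference between IMQ and control was -0.01 (exact p = 1). Over the 9 tests of 3 pairs, the lowest adjusted p was 0.3. *Rpl7l1* counts were 7.73% to 10.0% of those of *Rpl7* in control skin and 11.2% to 15.9% in control intestine (difference 0.54, exact p = 0.1). *Rpl22l1*, the paralog of *Rpl22*, had 18.1% to 27.2% of its counts in control skin and 24.4% to 33.4% in control intestine, with overlap (exact p = 0.2), and neither pair separated IMQ from control libraries in either tissue.

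*Rpl3l* and *Rpl39l* were close to absent from small intestine. *Rpl3l* was at 6.27% to 8.89% of the counts of *Rpl3* in control skin and had 6649 counts in the 3 control skin libraries together and 2 in the 3 control intestine libraries. Relative to library size this is a ratio of 3431, which rests in intestine on counts from control 8 alone. Its 95% binomial interval from the pooled counts, 949.3 to 28330, covers counting error only and not the spread between libraries. The skeletal muscle genes summed to 6.21 to 8.41 CPM in control intestine, against at least 10587 CPM in control skin. *Rpl39l* had 1149 counts in control skin and 0 in control intestine, which is at least 395-fold higher in skin when 3 counts over the group are set as the limit that 0 allows. Its counts were 2.86% to 3.59% of those of *Rpl39* in control skin and 1.89% to 2.06% in IMQ skin. *Rpl10l* had no count in any library, which allows up to 0.0194 CPM in control intestine.

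**Figure D4:**
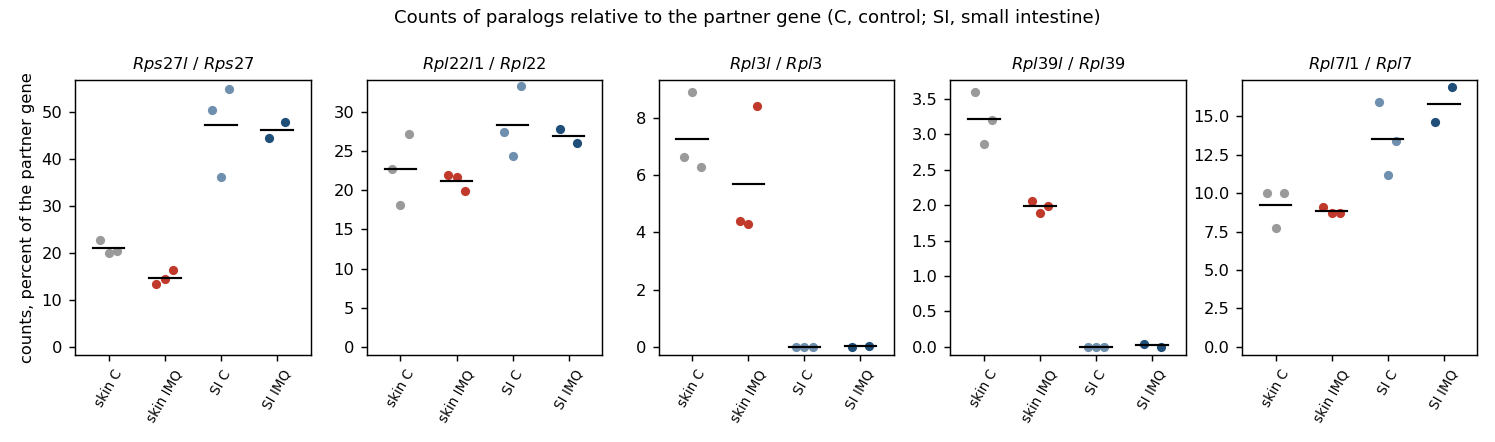
Counts of 5 paralogs as a percent of the counts of the partner gene in each of the 11 libraries (points), with group means (bars). *Rps27l* separates the tissues and, within skin, the treatment groups; *Rpl3l* and *Rpl39l* are at or near 0 in small intestine.

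Changes of single members against the rest of the family were examined by using the counts of the family itself as the library size, an alternative chosen after the data were seen. On that scale 0 members were called in skin, intestine or the interaction, where 8.54%, 3.33% and 6.18% of genes were, and 2 were called between control tissues, *Rps27l* (1.14, SE 0.16, adjusted p of 0.000547) and *Rpl7l1* (0.48, SE 0.17, adjusted p of 0.0408) in edgeR's quasi-likelihood test, where 54% of genes were. Without skin control 2, *Rpl39l* was called as lower in skin (-0.66, adjusted p of 0.0484 in edgeR's quasi-likelihood test, 14.2% of genes called). Between control tissues *Rpl7l1* was then no longer called (0.39, adjusted p of 0.107), and *Rps27l* and *Rpl32l* were, where 54.8% of genes were. As a share of the family's counts, *Rps12* took 18.3, 17.8 and 17.0 of each 1000 counts in control skin and 21.6, 20.4 and 21.2 in IMQ skin. The share was higher in every IMQ skin library than in any control for 6 members, *Rpl26*, *Rpl37a*, *Rplp1*, *Rps12*, *Rps27a* and *Rps29*, and lower for 11, among them *Rpl4*, *Rpl13*, *Rps19* and *Rps27l*. By the same ratio to the family's counts, 7.28% of all genes were higher and 27% lower. Without control 2 the numbers were 11 members higher and 21 lower, against 12.8% and 34.7% of genes. In both cases the share of the 83 members that was higher was close to that of all genes. Shares of members sum to a fixed total, so members cannot all rise, a limit that other genes do not have. Small-subunit members together held 40.8%, 40.6% and 40.8% of the family's counts in control skin and 41.5%, 41.2% and 41.7% in IMQ skin, with no overlap. Without *Rps12* these values were 39.7%, 39.6% and 39.8%, and 40.3%, 40.0% and 40.4%. In small intestine the small-subunit share, with *Rps12* included, was 40.6% to 41.2% in controls and 41.0% and 40.7% after IMQ, with overlap.

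Other genes of the translation machinery were described by lists chosen with earlier results known. Among all genes, 6.74% were called in skin, and 12.1% without control 2. Of 4 ribosomal proteins with other names, such as *Fau* and *Rack1*, 0 were called in skin and the median fold change was 0.24, with *Fau* at 0.25. Of 15 other genes with TOP mRNAs, such as elongation factors, 0 were called and 12 were above 0 (median 0.09), with *Npm1* at 0.34 and *Hnrnpa1* at -0.31. Without control 2, *Hnrnpa1* was called as lower (-0.53, adjusted p of 0.0418 in edgeR's quasi-likelihood test). Of 35 ribosome biogenesis genes, 0 were called and 32 were above 0 (median 0.18), with *Pno1* highest at 0.46 and *Ubtf* lowest at -0.15. Without control 2, 25 of the 35 were above 0 and the median was 0.08. Of 23 initiation factors, 22 were above 0 in skin (median 0.12), and 19 without control 2 (median 0.09). In skin 1 of them was called, *Eif6*, which keeps large subunits from joining too early. Its FPKM was 56.7, 52.9 and 51.2 in control and 76.5, 89.7 and 80.9 in IMQ skin, a rise of 0.67 (SE 0.11, adjusted p of 0.0206 in edgeR's quasi-likelihood test). The 78 mitochondrial ribosomal proteins had a median of 0.07 with 0 called, and of -0.0024 without control 2.

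In small intestine 0 genes were called in each of these lists, where 2.95% of all genes were called. The 4 ribosomal proteins with other names had a median of -0.03, near that of all genes (-0.02). The fold change was below 0 for 30 of 35 biogenesis genes (median -0.14), 14 of 15 TOP genes (median -0.11), 18 of 23 initiation factors (median -0.05) and 62 of 78 mitochondrial ribosomal proteins (median -0.09). Between control tissues, with relative log expression, the mitochondrial ribosomal proteins stood opposite to the cytosolic ones. In intestine 47 of the 78 were called higher and 0 lower, where 26.2% and 25.7% of all genes were. Their median was 0.59, *Mrps31* being at 2.15. With TMM the counts were 39 and 1, where 52% of all genes were called in either direction. With total counts they were 8 and 8, where 58.6% were called (median 0.13, against -0.46 for all genes). The median of the mitochondrial family lay above that of the cytosolic family under each of these scalings. Of the 35 biogenesis genes, 6 were called lower in intestine and 0 higher, among them *Nhp2* (-0.67), where 25.7% of all genes were called lower. Without skin control 2 it was 10, where 26.3% of all genes were called lower. The number called lower also moved with the scaling, to 9 with TMM, 11 with the upper quartile and 27 with total counts. The 4 ribosomal proteins with other names had a median of -0.0059, with *Fau* higher in intestine (0.47, adjusted p of 0.0311 in edgeR's quasi-likelihood test) and 0 lower. Without skin control 2, 0 of the 4 were called, and the same held with TMM and with the upper quartile. With total counts 2 of the 4 were called lower and 0 higher, where 58.6% of all genes were called.

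**Figure D5:**
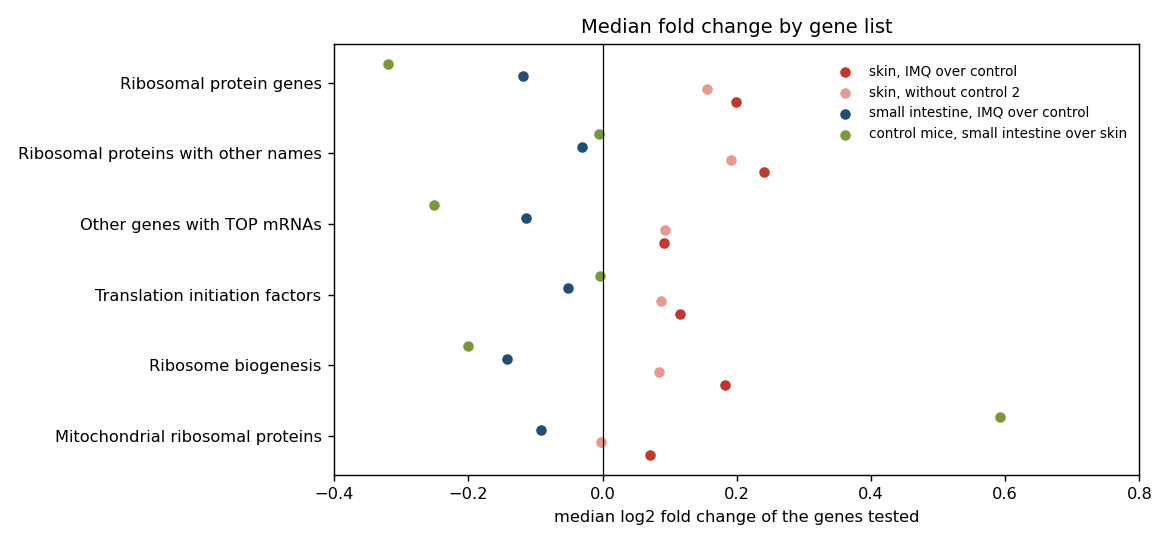
Median log2 fold change of the genes tested in the ribosomal protein family and in 5 other lists, for IMQ over control in skin with and without control 2, IMQ over control in small intestine, and small intestine over skin in control mice. The cytosolic family is at 0.20, 0.16, -0.12 and -0.32; the mitochondrial ribosomal proteins are at 0.59 in the last comparison.

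Of 20 regulators of ribosomal protein genes or TOP mRNAs, 2 were called in skin, where 6.74% of all genes were. *Myc* had an FPKM of 15.7, 14.1 and 19.1 in control and 29.2, 24.9 and 24.6 in IMQ skin, a rise of 0.75 (SE 0.14, adjusted p of 0.0302 in edgeR's quasi-likelihood test). *Mycn* had 10.1, 1.39 and 13.4 in control and 0.430, 0.355 and 0.623 in IMQ skin, and fell by 4.06 (SE 0.78, adjusted p of 0.0307). The low control is control 2, whose hair follicle genes were low as well. In small intestine *Myc* had 12.1, 14.7 and 9.48 in control and 8.39 and 8.55 after IMQ, which did not pass the test (-0.46, SE 0.17). The interaction was past the threshold of edgeR's quasi-likelihood test for *Myc* (-1.20, SE 0.23, adjusted p of 0.0214) and for *Mycn* (4.24, SE 0.92, adjusted p of 0.0397). In the interaction 2.55% of all genes were called. The part of these regulators in the values of the ribosomal protein genes was not tested.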

How the data were processed

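RNA of skin and small intestine was sequenced as stranded mRNA libraries (100-bp paired ends). Per the paper's methods, the authors aligned reads to mm10 with HISAT 2.1.0 and assembled transcripts with StringTie 2.1.3b, and the labels also name bcl2fastq 2.20.0 and Trimmomatic. The deposited table holds, for each of 45777 genes and 11 libraries, read counts as whole numbers without normalization. It also holds FPKM and TPM values that the authors scaled by transcript length and library size. The rule by which counts were assigned to genes is not given in the sources used here.

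Members and gene lists were chosen with earlier results of these data known. Counts were scaled by relative log expression and fitted in R 4.3.3 with edgeR 4.0.16 (glmQLFit and glmQLFTest), with p-values adjusted by Benjamini-Hochberg over all genes that had at least 1 count in every library of the comparison. Skin, intestine and control tissues were each fitted alone, and the interaction over all 11 libraries. A fold change was called at an adjusted p under 0.05. Members were named by fixed rules: the 5 highest and 5 lowest per comparison whose normalized counts averaged 50 or more, the 5 highest and 5 lowest by mean FPKM, paralog pairs and a list of well studied genes. Any other member, such as *Rps15a*, *Rpl36a*, *Rpl26* or *Rps25*, was named after its values were seen. Alternatives were DESeq2 1.42.0, limma 3.58.1 (voom, and log2(FPKM + 1) or log2(FPKM + 0.01)), other scalings and filters, leaving out each library, and, chosen after seeing the data, member counts as the library size. Scripts were tested on simulated data. Figures were drawn with matplotlib 3.10.9. Values of some members are not reported here.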

Additional observations from a re-analysis of the deposited data

How the results depend on the processing

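No paired analysis of the tissues was possible because which libraries came from the same mouse is not stated. The causes of the differences below were not tested. DESeq2 called 3 members in skin and 6 in the interaction, where edgeR called 0, and over all genes it called 3030 in skin and 1206 in intestine. On log2(FPKM + 1), 894 genes were called in skin. Without 1 library each, calls over all genes were 258 (without IMQ 5) to 2521 (without control 2) in skin and 294 (without IMQ 10) to 801 (without control 7) in intestine, and member calls in the interaction were 0 to 1. Where 1 IMQ intestine library remained, it was assumed to vary like the other groups.

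Between control tissues, member calls (and the share of all genes called) were 38 with TMM (52%), 38 with DESeq2 (54%), 45 with the upper quartile (52.4%), 77 with total counts (58.6%), 12 with no filter (39.7%), 75 on log2(FPKM + 1) (57.4%), 76 on log2(FPKM + 0.01) (58.2%), 2 with member counts as library size (an alternative chosen after seeing the data), and 2 to 24 without 1 library. The median was -0.46 with the upper quartile, -0.78 with total counts, -0.77 on log2(FPKM + 1) and -0.78 on log2(FPKM + 0.01). Member shares were 10.3%, 10.7%, 5.14% and 4.74% of summed TPM in control skin, IMQ skin, control intestine and IMQ intestine. Of nuclear protein-coding counts they were 4.66% in IMQ skin, 2.50% in control intestine and 2.22% in IMQ intestine.

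Directions reversed for small values. In intestine, *Rpl36* was -0.042 with the upper quartile, -0.017 with total counts, -0.026 on log2(FPKM + 1) and -0.026 on log2(FPKM + 0.01), *Rps21* was -0.0095 and *Rps28* -0.013 with the upper quartile. Without 1 intestine library, *Rplp2* was -0.16 to 0.35, *Rps29* -0.017 to 0.20, *Rps21* -0.10 to 0.19, *Rps28* -0.13 to 0.22 and *Rpl36* -0.13 to 0.16. In the interaction *Rps27l* was 0.0047 with total counts and 0.0025 with voom, and without 1 library -0.13 to 0.13, *Rplp2* -0.36 to 0.18 and *Rps28* -0.31 to 0.061. Between control tissues *Rpl7l1* was -0.33 with total counts, -0.30 on log2(FPKM + 1) and -0.31 on log2(FPKM + 0.01), and without 1 library *Rpl28* was -0.16 to 0.075 and *Rps29* -0.16 to 0.0073.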
